A study of Homo sapiens with 24 samples.

Results

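The 28 genes described here carry out cholesterol synthesis, its feedback control and cholesterol transport, and were measured in HCC827, a human non-small cell lung cancer line whose growth depends on a mutant EGFR. They were taken by symbol from a named list, a rule that applies no measured value, and all 28 stand among the 19932 genes of the deposited gene table. The RNA came from Resistant, drug-tolerant persister (DTP) and Parental HCC827 cells, each either made to overexpress cATF6, a circular RNA (OC), or given empty vector (EV), and every such group had 3 libraries. A further 3 libraries of cells kept in osimertinib (Osi), an inhibitor of mutant EGFR, and 3 of cells kept in the solvent DMSO, both for 10 days, were used for circular RNAs. The labels do not say how the DTP and Resistant cells were raised, whether the Resistant line is 1 clone, or whether the 3 libraries of a group came from separate cultures, so the p-values measure the spread between these libraries, which may be technical. In bulk RNA a change in the share of cells that use a gene and a change in RNA per cell cannot be told apart.

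Animal cells build cholesterol from acetyl-CoA, first through mevalonate to isoprenoid units and farnesyl diphosphate, then through squalene and lanosterol in a series of sterol steps. The membrane-bound factor SREBP-2, encoded by SREBF2, turns on most of these enzymes when sterols are low, after its escort SCAP carries it to the Golgi, while INSIG1 holds the pair back in the endoplasmic reticulum when sterols are plentiful. Cholesterol that enters by endocytosis leaves the lysosome through NPC2 and NPC1, is stored as ester by SOAT1, and leaves the cell through ABCA1 and ABCG1, which are targets of the oxysterol-sensing LXR receptors.

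Gene totals ran from 30075330 to 45068508 counts per library, of which the 28 genes took 0.19 to 0.341%. At least 10 counts in every 1 of the 18 libraries were found for 26 of the genes, the others being STARD4 and ABCG1. Values below are counts scaled for library size (scaled counts), and a fold change is 2 to the power of the fitted difference in log2(scaled count + 1). A gene was called when limma gave it a Benjamini-Hochberg adjusted p under 0.05 over the 15211 genes tested. ATF6, the gene after which cATF6 is named, averaged 32301 scaled counts in Resistant OC cells against 2106 in Resistant EV cells, 20975 in DTP OC cells against 3298 in DTP EV cells, and 18175 in Parental OC cells against 2949.6 in Parental EV cells. None of the 7 epithelial markers listed was at 0 in all 18 libraries. Their summed scaled counts were 895821 to 1020554 in Resistant libraries, 234585 to 286835 in DTP libraries and 287879 to 304045 in Parental libraries. The CD68 signal was 44040 to 59854 scaled counts in Resistant libraries against 1010.3 to 5504 in the other 12, CD14 reached 468 in Resistant libraries against 55.0 at most in the others, and the remaining 3 leukocyte markers stayed between 0 and 29.7 in every library. Of 6 fibroblast markers, PDGFRB was at 3707 to 11455 in Resistant libraries against 20.4 at most elsewhere. COL1A1 was at 593 to 915 in Resistant libraries against 512 to 1427 elsewhere. COL3A1 reached 24.5 in Resistant libraries against 488 elsewhere, and LUM reached 19.1 against 228. COL1A2 reached 36.2 in Resistant libraries against 13.4 elsewhere, and DCN reached 10.8 against 10.9. The summed scaled counts of 4 endothelial markers were 564 to 1063 in Resistant libraries against 132 to 455 elsewhere. Those of 4 hepatocyte and steroidogenic markers were 299.9 to 412 in Resistant libraries against 0 to 9.25 elsewhere, with TTR at 0 in every library. The part of other cell types in the results on Resistant cells was not tested. The exons of 11 of the 28 genes overlap a gene on the other strand, those of CYP51A1, TM7SF2 and NPC2 overlap a gene on the same strand, and IDI1, FDPS, CYP51A1 and HSD17B7 have pseudogenes, so their counts are less certain, since the strand setting of the counting is not given.

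In persister cells with empty vector, 12 of the 18 synthesis enzymes rose relative to parental cells and none fell, SREBF2 and INSIG1 rose, SREBF1 fell, and 4 of the 6 transport and storage genes fell. Of the 28 genes, 15 were called higher in DTP EV than in Parental EV cells and 5 lower, against 28.7% higher and 28.2% lower of all genes tested (56.9% called). The median log2 fold change of the 28 genes was 0.32, and that of all genes was 0. In resistant cells with empty vector 16 of the 28 were called higher than in Parental EV cells and 8 lower, against 38.5% higher and 43.7% lower of all genes (82.2% called). Their median log2 fold change was 0.51, against -0.10 for all genes, and without STARD4 and ABCG1 it was also 0.51, with 15 called higher and 7 lower. Resistant EV cells set against DTP EV cells had 17 genes called higher and 9 lower, against 37.5% higher and 43.1% lower of all genes (80.6% called), and the median was 0.64 against -0.10 for all genes. Without STARD4 and ABCG1, 16 were called higher and 8 lower in that comparison. The comparisons of DTP EV and Resistant EV cells share the Parental EV libraries. The Resistant libraries carry a library name series of their own, so resistance and name series cannot be told apart wherever Resistant cells are set against Parental or DTP cells.

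The DTP EV libraries differed from each other more than those of the other groups. The median coefficient of variation over 26 genes was 11.2% in DTP EV cells, against 3.01% in Parental EV cells. Within DTP EV, 22 of the 28 genes had their lowest value in replicate 3, and the matching share over all genes is not given. Yet replicate 1 differed most from the others. Chi-square per degree of freedom was 54.3 between replicates 1 and 2, 53.7 between 1 and 3, and 16.6 between 2 and 3.

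**Figure D1:**
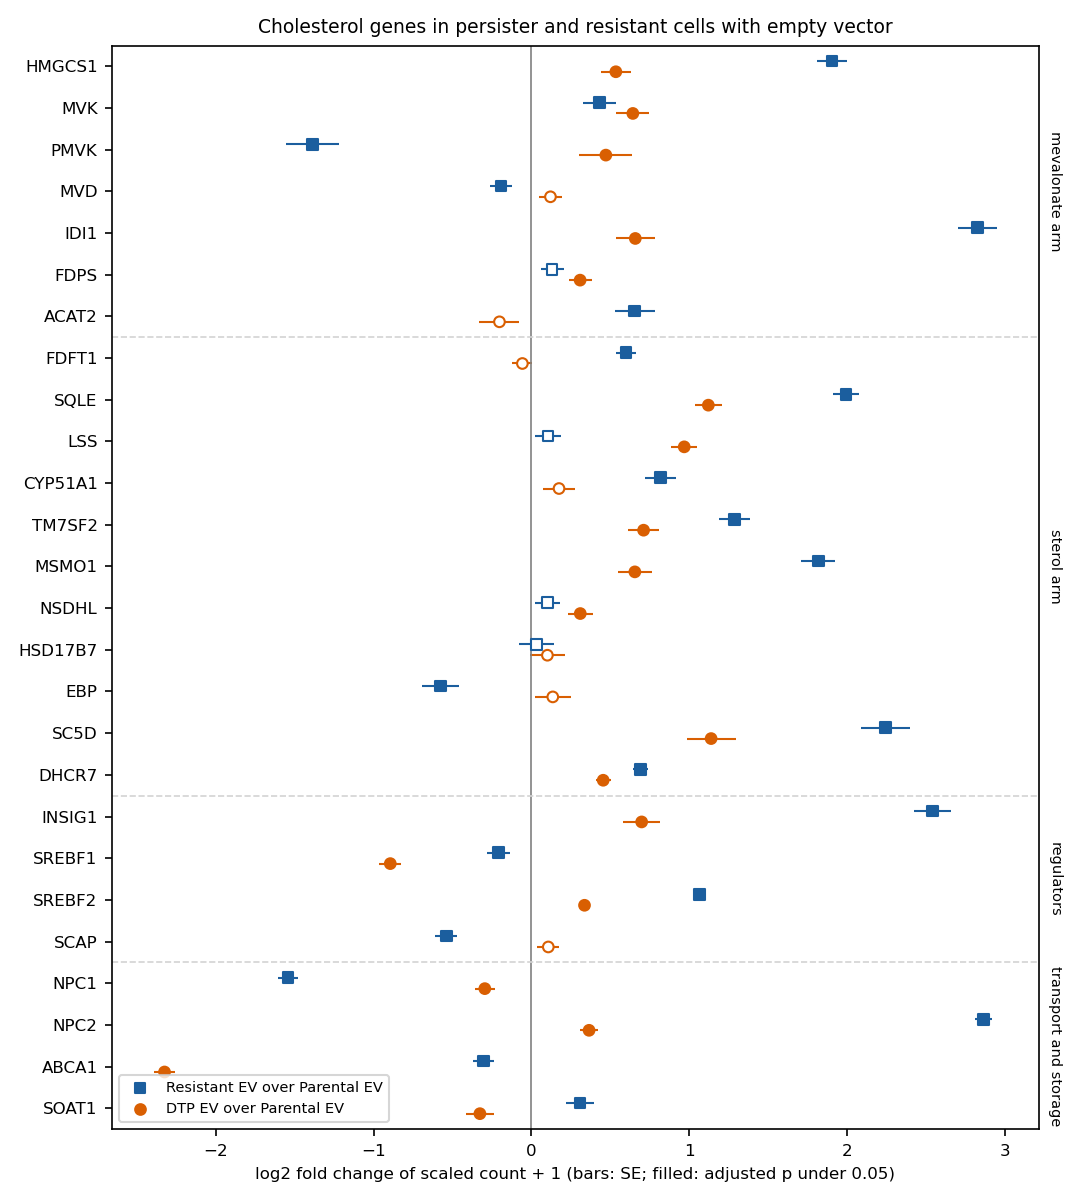
Log2 fold changes of 26 cholesterol genes in DTP EV cells (circles) and Resistant EV cells (squares), each over Parental EV cells, with the standard error of limma as bars and filled symbols for adjusted p under 0.05. IDI1, INSIG1 and NPC2 lie furthest right in Resistant EV cells at 2.82, 2.54 and 2.86, ABCA1 lies furthest left in DTP EV cells at -2.32, and STARD4 and ABCG1, which are at or near 0 in a whole state, are not drawn.

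Of the 7 genes of the mevalonate arm, 5 rose and none fell in DTP EV cells relative to Parental EV cells, while 4 rose and 2 fell in Resistant EV cells. Of all genes tested, 28.7% were called higher and 28.2% lower in DTP EV cells, and 38.5% and 43.7% in Resistant EV cells. HMGCS1, which joins acetyl-CoA and acetoacetyl-CoA at the entry of the pathway, had 10114, 9740.3 and 10199 scaled counts in Resistant EV libraries, 4059.9, 4391 and 3275 in DTP EV libraries, and 2719, 2724 and 2594 in Parental EV libraries. All values of each state lay above those of the state named after it. The rise over Parental EV cells was 3.74-fold in Resistant EV cells (log2 1.90, SE 0.09, limma adjusted p 5.12e-12) and 1.45-fold in DTP EV cells (log2 0.53, SE 0.09, limma adjusted p 0.00012). IDI1, which makes the reactive isoprenoid unit dimethylallyl diphosphate, had 2708, 2830.0 and 2795 scaled counts in Resistant EV libraries, 668, 723 and 489 in DTP EV libraries, and 424, 368 and 385 in Parental EV libraries. The 3 states did not overlap, and the Resistant EV level was 7.08-fold that of Parental EV cells (log2 2.82, SE 0.12, limma adjusted p 9.82e-13) against 1.58-fold in DTP EV cells (log2 0.66, SE 0.12, limma adjusted p 0.000216).

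Other enzymes of the arm did not follow HMGCS1 and IDI1. The phosphomevalonate kinase gene PMVK had 286, 211 and 231 scaled counts in Resistant EV libraries, 847, 1006 and 785 in DTP EV libraries, and 607, 614 and 673 in Parental EV libraries. Its fall in Resistant EV cells relative to Parental EV cells was 2.61-fold (log2 -1.39, SE 0.17, limma adjusted p 7.65e-07). The rise of PMVK in DTP EV cells was 1.39-fold (limma adjusted p 0.024) and was no longer called without DTP EV replicate 2 (adjusted p 0.106), Parental EV replicate 1 (adjusted p 0.0671) or Parental EV replicate 2 (adjusted p 0.064). Mevalonate kinase, MVK, rose in both states, by 1.35-fold in Resistant EV and 1.56-fold in DTP EV cells. The decarboxylase MVD fell by 0.19 on the log2 scale in Resistant EV cells (limma adjusted p 0.0203), a call lost without Parental EV replicate 3 (adjusted p 0.0796) or Resistant EV replicate 3 (adjusted p 0.0948). The farnesyl diphosphate synthase FDPS rose 1.24-fold in DTP EV cells, and its log2 fold change in Resistant EV cells was 0.13 (limma adjusted p 0.109). The thiolase ACAT2, which makes acetoacetyl-CoA, rose 1.57-fold in Resistant EV cells and had a log2 fold change of -0.20 in DTP EV cells (limma adjusted p 0.186).

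Of the 11 genes of the sterol arm, 7 rose and none fell in DTP EV cells, and 7 rose and 1 fell in Resistant EV cells, each relative to Parental EV cells. The shares over all genes were 28.7% higher and 28.2% lower in DTP EV cells, and 38.5% and 43.7% in Resistant EV cells (82.2% called). SQLE, the squalene epoxidase and a slow step of the pathway, had 2249, 2052 and 2342 scaled counts in Resistant EV libraries, 1324, 1254 and 1063 in DTP EV libraries, and 576, 551 and 540.2 in Parental EV libraries. The 3 states did not overlap, with a rise over Parental EV cells of 3.97-fold in Resistant EV cells (log2 1.99, SE 0.08, limma adjusted p 6.87e-13) and 2.17-fold in DTP EV cells (log2 1.12, SE 0.08, limma adjusted p 9.8e-09). SC5D, the desaturase of a late step, had 5942, 5246 and 5819 scaled counts in Resistant EV libraries, 1813, 3481 and 2899 in DTP EV libraries, and 1209, 1272 and 1115 in Parental EV libraries. The DTP EV values spread over a wide range and still lay above every Parental EV value. The rise over Parental EV cells was 4.73-fold in Resistant EV cells (log2 2.24, SE 0.16, limma adjusted p 5.37e-10) and 2.20-fold in DTP EV cells (log2 1.14, SE 0.16, limma adjusted p 9.32e-06).

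The lanosterol synthase LSS set the states apart in another order. It had 2216, 1913 and 1613 scaled counts in Resistant EV libraries, 3445, 3577 and 3333 in DTP EV libraries, and 1759, 1803 and 1730.2 in Parental EV libraries. The DTP EV values lay above both other states, and the Resistant EV and Parental EV values overlapped. LSS was 1.96-fold higher in DTP EV than in Parental EV cells (log2 0.97, SE 0.08, limma adjusted p 3.51e-08), and its log2 fold change in Resistant EV cells was 0.11 (SE 0.08, limma adjusted p 0.233). TM7SF2, a sterol C14 reductase, had 992, 819 and 774 scaled counts in Resistant EV libraries, 555, 619 and 553 in DTP EV libraries, and 335, 375 and 344 in Parental EV libraries, a rise of 2.44-fold in Resistant EV cells and 1.64-fold in DTP EV cells (limma adjusted p 2.24e-09 and 1.18e-05). MSMO1, the C4 methyl oxidase, rose 3.52-fold in Resistant EV and 1.57-fold in DTP EV cells, and DHCR7, which reduces 7-dehydrocholesterol to cholesterol, rose 1.61-fold and 1.37-fold in the same states. FDFT1, the squalene synthase, and CYP51A1, the lanosterol demethylase, rose 1.51-fold and 1.76-fold in Resistant EV cells, with log2 fold changes of -0.06 and 0.17 in DTP EV cells (limma adjusted p 0.461 and 0.145). EBP, a sterol isomerase, fell 1.49-fold in Resistant EV cells (limma adjusted p 0.000203). NSDHL, the C4 decarboxylase, rose 1.24-fold in DTP EV cells, and HSD17B7, the matching ketoreductase, was called in none of the 11 comparisons.

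The 4 regulators split. SREBF2 had 10214, 9865 and 9659 scaled counts in Resistant EV libraries, 6119, 5973 and 5845 in DTP EV libraries, and 4809, 4732 and 4669 in Parental EV libraries. The 3 states did not overlap, and the level was 2.09-fold that of Parental EV cells in Resistant EV cells (log2 1.06, SE 0.04, limma adjusted p 5.5e-14) and 1.26-fold in DTP EV cells (log2 0.34, SE 0.04, limma adjusted p 8.8e-07). INSIG1, itself a target of SREBP-2, had 6370.1, 6395 and 6629 scaled counts in Resistant EV libraries, 1947, 2106 and 1423 in DTP EV libraries, and 1151, 1089 and 1089.9 in Parental EV libraries. Its rise over Parental EV cells was 5.82-fold in Resistant EV cells (log2 2.54, SE 0.12, limma adjusted p 1.93e-12) and 1.62-fold in DTP EV cells (log2 0.70, SE 0.12, limma adjusted p 7.27e-05), with no overlap between states.

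SREBF1, which encodes the SREBP-1 factors that act mostly on fatty acid synthesis, moved the other way in persister cells. It had 7567, 7216 and 7389.7 scaled counts in Resistant EV libraries, 3928, 5124 and 4820.1 in DTP EV libraries, and 8689, 8508 and 8431 in Parental EV libraries. All DTP EV values lay below all Parental EV values, with a 1.86-fold fall (log2 -0.89, SE 0.07, limma adjusted p 1.67e-08), and the fall in Resistant EV cells was 1.16-fold (log2 -0.21, SE 0.07, limma adjusted p 0.0114). SCAP had 1629.8, 1629 and 1973 scaled counts in Resistant EV libraries, 2612, 2676 and 2876 in DTP EV libraries, and 2579, 2481 and 2518 in Parental EV libraries. It fell 1.45-fold in Resistant EV cells (limma adjusted p 1.98e-06), and its log2 fold change in DTP EV cells was 0.11 (SE 0.07, limma adjusted p 0.213).

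To show the DNA at which sterol factors act, the 250 bases before the gene start are given for SREBF2, INSIG1 and HMGCS1, which rose in both states, and for ABCA1, which fell in both. They are RefSeq sequence on the coding strand in build GRCh38.p14, at chr22:41832855-41833104 (+ strand), chr7:155297628-155297877 (+ strand), chr5:43313413-43313662 (- strand) and chr9:104928156-104928405 (- strand). Capitals mark the sterol regulatory element core TCACNCCAC and the NF-Y box CCAAT on either strand, so that ATTGG is an NF-Y box read on the other strand.
SREBF2: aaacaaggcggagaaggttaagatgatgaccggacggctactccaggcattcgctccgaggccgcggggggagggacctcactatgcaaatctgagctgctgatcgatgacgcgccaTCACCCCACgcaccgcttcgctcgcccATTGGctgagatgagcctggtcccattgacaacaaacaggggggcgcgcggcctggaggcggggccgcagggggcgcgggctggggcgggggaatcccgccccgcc
INSIG1: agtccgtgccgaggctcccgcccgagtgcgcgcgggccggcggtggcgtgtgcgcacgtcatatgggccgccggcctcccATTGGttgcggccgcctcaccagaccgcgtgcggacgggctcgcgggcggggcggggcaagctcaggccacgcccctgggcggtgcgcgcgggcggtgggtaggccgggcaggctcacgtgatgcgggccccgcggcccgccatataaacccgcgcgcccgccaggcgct
HMGCS1: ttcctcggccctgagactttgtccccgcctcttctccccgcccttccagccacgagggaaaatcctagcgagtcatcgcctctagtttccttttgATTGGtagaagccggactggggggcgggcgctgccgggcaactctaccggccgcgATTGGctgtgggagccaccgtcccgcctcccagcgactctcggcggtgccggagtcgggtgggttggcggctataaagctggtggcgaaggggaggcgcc
ABCA1: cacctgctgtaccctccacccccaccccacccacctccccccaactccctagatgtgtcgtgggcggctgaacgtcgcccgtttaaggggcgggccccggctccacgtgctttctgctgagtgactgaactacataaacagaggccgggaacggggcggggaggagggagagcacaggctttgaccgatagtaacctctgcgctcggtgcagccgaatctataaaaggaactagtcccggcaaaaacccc

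Among these promoters, the sterol regulatory element core was found in that of SREBF2, from base -133 to -125 before the start, with an NF-Y box at -106 to -102. INSIG1 had an NF-Y box at -170 to -166, HMGCS1 had NF-Y boxes at -155 to -151 and at -100 to -96, and neither motif was found in the ABCA1 window. A promoter entry was matched for 24 of the 28 genes. SREBF2 was the 1 gene of the 24 with the core (4.17%), which stood in 0.883% of 35116 RefSeq promoters. The search for the core covered only the letters TCACNCCAC in the window before the start. Its absence from a promoter therefore does not show that the gene lacks a sterol regulatory element. The NF-Y box stood in 17 of the 24 (70.8%) against 32% of all promoters, and the Sp1 box GGGCGG, on either strand, in 23 of the 24 (95.8%) against 42.6%. The 24 genes had 1 promoter entry each, while all entries were counted for the whole set, whether or not the gene was expressed here. The shares therefore come from unlike sets. A direct repeat of the exact letters GGTCA spaced by 4 bases stood in none of the 24 and in 0.0484% of all promoters. That pattern does not cover the sites that LXR receptors bind, so its absence says nothing about LXR sites in these promoters. No core or NF-Y box overlaps another motif in the printed sequences. A match describes letters and does not show binding.

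Transport and storage genes moved in both directions. ABCA1, the exporter that loads cholesterol onto lipid-poor apolipoprotein, had 6177, 5393 and 5699 scaled counts in Resistant EV libraries, 1498, 1398 and 1357 in DTP EV libraries, and 7159, 7266 and 6875 in Parental EV libraries. It fell 5.01-fold in DTP EV cells relative to Parental EV cells (log2 -2.32, SE 0.07, limma adjusted p 8.47e-14) and 1.24-fold in Resistant EV cells (log2 -0.30, SE 0.07, limma adjusted p 0.000406), and no values of the 3 states overlapped. Set against DTP EV cells, Resistant EV cells had 4.05-fold more ABCA1 (limma adjusted p 2.66e-14). NPC2, the soluble lysosomal protein that binds cholesterol, had 28865, 30529 and 29361 scaled counts in Resistant EV libraries, 4970.3, 5693 and 5064 in DTP EV libraries, and 4141, 3956 and 4097 in Parental EV libraries. It rose 7.28-fold in Resistant EV cells (log2 2.86, SE 0.06, limma adjusted p 4.46e-17) and 1.29-fold in DTP EV cells (log2 0.36, SE 0.06, limma adjusted p 3.54e-05).

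NPC1, the membrane partner of NPC2, went the other way. It had 2057, 1930.2 and 1798 scaled counts in Resistant EV libraries, 4853, 4555 and 4310.0 in DTP EV libraries, and 5626, 5584 and 5609 in Parental EV libraries. Relative to Parental EV cells it fell 2.91-fold in Resistant EV cells (log2 -1.54, SE 0.06, limma adjusted p 6.08e-13) and 1.23-fold in DTP EV cells (log2 -0.30, SE 0.06, limma adjusted p 0.000873), with no overlap between states. SOAT1, the enzyme that esterifies cholesterol for storage, had 5555, 5435 and 5795 scaled counts in Resistant EV libraries, 4354, 3537 and 3041 in DTP EV libraries, and 4407, 4610.4 and 4547 in Parental EV libraries. SOAT1 fell 1.25-fold in DTP EV cells (log2 -0.33, SE 0.09, limma adjusted p 0.00471) and rose 1.24-fold in Resistant EV cells (log2 0.31, SE 0.09, limma adjusted p 0.00436), the rise being lost under quantile normalization (log2 0.04, adjusted p 0.697).

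ABCG1 and STARD4 were at or near 0 in a whole state. ABCG1, an exporter to high-density lipoprotein, had 215, 159 and 205 scaled counts in Resistant EV libraries, 0, 8.35 and 9.01 in DTP EV libraries, and 0, 0 and 1.91 in Parental EV libraries. It passed the filter on low counts through the Resistant libraries alone. Per scaled depth, the 528 reads of Resistant EV cells came to 312 times the 2 reads of Parental EV cells, with an exact 95% interval of 85.9 to 2581 that covers counting error only. STARD4, a carrier of sterol between membranes, had 472, 530.2 and 428 scaled counts in DTP EV libraries and 715, 709 and 679 in Parental EV libraries, a fall of 1.48-fold (limma adjusted p 0.00637). It is listed at 0 in all 6 Resistant libraries, and no fold is given for it there. In all, 259 genes of the table are at 0 either in the 6 Resistant libraries or in the other 12 while having at least 10 counts in every library of the rest. The files do not settle whether STARD4 had no reads there or was left unfilled when the table was put together.

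**Figure D2:**
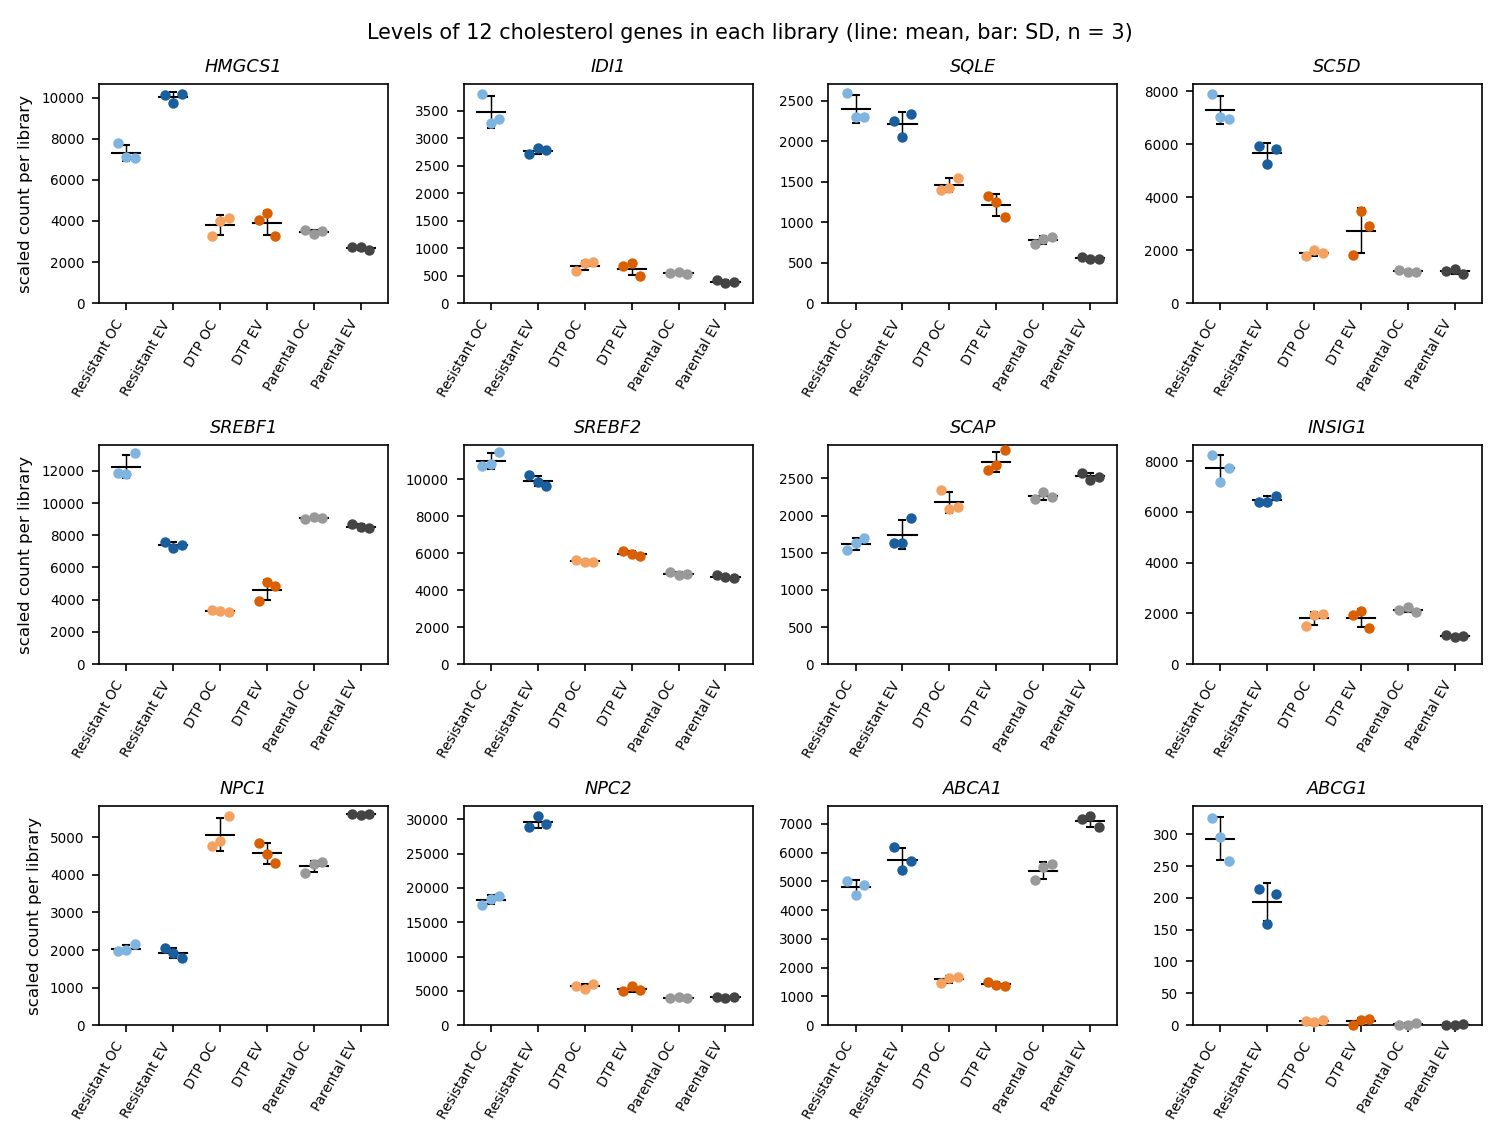
Scaled counts of 12 cholesterol genes in each of 18 libraries, with the group mean as a line and the SD as a bar (n = 3 each), in Resistant, DTP and Parental cells with cATF6 (OC) or empty vector (EV). HMGCS1, IDI1, SQLE, SC5D, SREBF2, INSIG1, NPC2 and ABCG1 stand highest in the 6 Resistant libraries, ABCA1 and SREBF1 stand lowest in the 6 DTP libraries, and NPC1 stands lowest in the 6 Resistant libraries.

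Within the resistant state, cATF6 overexpression went with higher values of most synthesis enzymes. Of the 28 genes, 14 were called higher and 4 lower in Resistant OC than in Resistant EV cells, against 16.3% higher and 20.4% lower of all genes tested (36.7% called), and their median log2 fold change was 0.29 against -0.02 for all genes. DHCR7 had 9181, 9584 and 9465 scaled counts in Resistant OC libraries against 5194, 5240.1 and 5121 in Resistant EV libraries. The groups lay far apart, with a 1.81-fold rise (log2 0.86, SE 0.05, limma adjusted p 2.32e-09). MVD had 2136, 2112 and 2356 scaled counts in Resistant OC libraries against 1315, 1417 and 1205 in Resistant EV libraries, a 1.68-fold rise (log2 0.75, SE 0.07, limma adjusted p 7.58e-07). TM7SF2 had 1321, 1396 and 1481 scaled counts in Resistant OC libraries against 992, 819 and 774 in Resistant EV libraries, a 1.63-fold rise (log2 0.71, SE 0.10, limma adjusted p 3.89e-05). None of these groups overlapped. Among regulators, SREBF1 had 11879, 11819.8 and 13079 scaled counts in Resistant OC libraries against 7567, 7216 and 7389.7 in Resistant EV libraries, a 1.66-fold rise (log2 0.73, SE 0.07, limma adjusted p 8.01e-07), while SREBF2 rose 1.11-fold (limma adjusted p 0.00427).

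HMGCS1 fell in the same cells. It had 7786, 7099.5 and 7054 scaled counts in Resistant OC libraries against 10114, 9740.3 and 10199 in Resistant EV libraries, a 1.37-fold fall (log2 -0.46, SE 0.09, limma adjusted p 0.00113). PMVK also fell, by 0.62 on the log2 scale (limma adjusted p 0.0083), a call lost in a fit of these 2 groups alone (adjusted p 0.059). NPC2 had 17557, 18407 and 18836 scaled counts in Resistant OC libraries against 28865, 30529 and 29361 in Resistant EV libraries, a 1.62-fold fall (log2 -0.70, SE 0.06, limma adjusted p 1.34e-07), and ABCA1 fell 1.20-fold (limma adjusted p 0.00497). FDPS, FDFT1, ACAT2, MVK, EBP, MSMO1 and LSS rose 1.39-fold to 1.59-fold. The rise of NSDHL (log2 0.26, limma adjusted p 0.0166) was lost without Resistant EV replicate 1 (adjusted p 0.0653) or Resistant OC replicate 2 (adjusted p 0.0932). The rise of IDI1 stood at the threshold (log2 0.32, limma adjusted p 0.0496) and was lost on leaving out any 1 of the 6 Resistant libraries, all 3 Parental OC libraries in turn or Parental EV replicate 3, with adjusted p from 0.0532 to 0.152.

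In parental cells 8 of the 28 genes were called higher and 2 lower in OC than in EV cells, against 5.99% higher and 8% lower of all genes tested (14% called), and the median log2 fold change was 0.16 against 0 for all genes. INSIG1 had 2133, 2236 and 2073 scaled counts in Parental OC libraries against 1151, 1089 and 1089.9 in Parental EV libraries. The groups did not overlap, with a 1.93-fold rise (log2 0.95, SE 0.12, limma adjusted p 4.04e-05). SQLE had 727, 796 and 821 scaled counts in Parental OC libraries against 576, 551 and 540.2 in Parental EV libraries, a 1.40-fold rise (limma adjusted p 0.00084). IDI1 had 543, 561 and 529 scaled counts in Parental OC libraries against 424, 368 and 385 in Parental EV libraries, a 1.39-fold rise (limma adjusted p 0.0152) that was not called without Parental EV replicate 2 (adjusted p 0.0653) or Parental OC replicate 2 (adjusted p 0.0542). HMGCS1, FDPS, FDFT1, LSS and DHCR7 rose 1.19-fold to 1.30-fold. Both genes that fell serve transport: NPC1 had 4052, 4292 and 4337 scaled counts in Parental OC libraries against 5626, 5584 and 5609 in Parental EV libraries, a 1.33-fold fall (limma adjusted p 0.000417), and ABCA1 had 5032, 5497 and 5586 against 7159, 7266 and 6875, a 1.32-fold fall (limma adjusted p 0.000527). A fit of these 2 groups alone called 18 of the 28 genes, and 40.7% of all genes it tested.

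In persister cells 2 genes were called higher and 3 lower in OC than in EV cells, against 9.49% higher and 8.76% lower of all genes tested (18.2% called), and the median log2 fold change was -0.0019 against 0.02 for all genes. SREBF1 had 3369, 3312 and 3254 scaled counts in DTP OC libraries against 3928, 5124 and 4820.1 in DTP EV libraries, a 1.39-fold fall with no overlap (log2 -0.47, SE 0.07, limma adjusted p 0.000417). SCAP had 2339.8, 2084 and 2117 scaled counts in DTP OC libraries against 2612, 2676 and 2876 in DTP EV libraries, a 1.25-fold fall with no overlap (log2 -0.32, SE 0.07, limma adjusted p 0.00529). SC5D had 1769.9, 2024 and 1893 scaled counts in DTP OC libraries against 1813, 3481 and 2899 in DTP EV libraries, groups that overlap (limma adjusted p 0.0425), and it was not called without DTP EV replicate 2 (adjusted p 0.215) or without any 1 other library except DTP EV replicate 1, Resistant EV replicate 2 and Resistant OC replicate 1. ACAT2 had 1283, 1378 and 1551 scaled counts in DTP OC libraries against 1332, 1159.5 and 807 in DTP EV libraries, which also overlap (limma adjusted p 0.0476), and it was not called on leaving out any 1 library except DTP EV replicate 1 and DTP OC replicate 1, with adjusted p up to 0.218 without DTP EV replicate 3. SQLE rose 1.20-fold (limma adjusted p 0.0364), and was not called without DTP EV replicate 2 (adjusted p 0.0584), DTP EV replicate 3 (adjusted p 0.192), DTP OC replicate 2 (adjusted p 0.0616) or DTP OC replicate 3 (adjusted p 0.156). A fit of these 2 groups alone called none of the 28 genes and 65 genes in all, and the number of the 28 called was 8 without DTP EV replicate 1, 3 without any 1 of the 6 Parental libraries and 2 without DTP EV replicate 2, DTP EV replicate 3, DTP OC replicate 2 or DTP OC replicate 3.

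**Figure D3:**
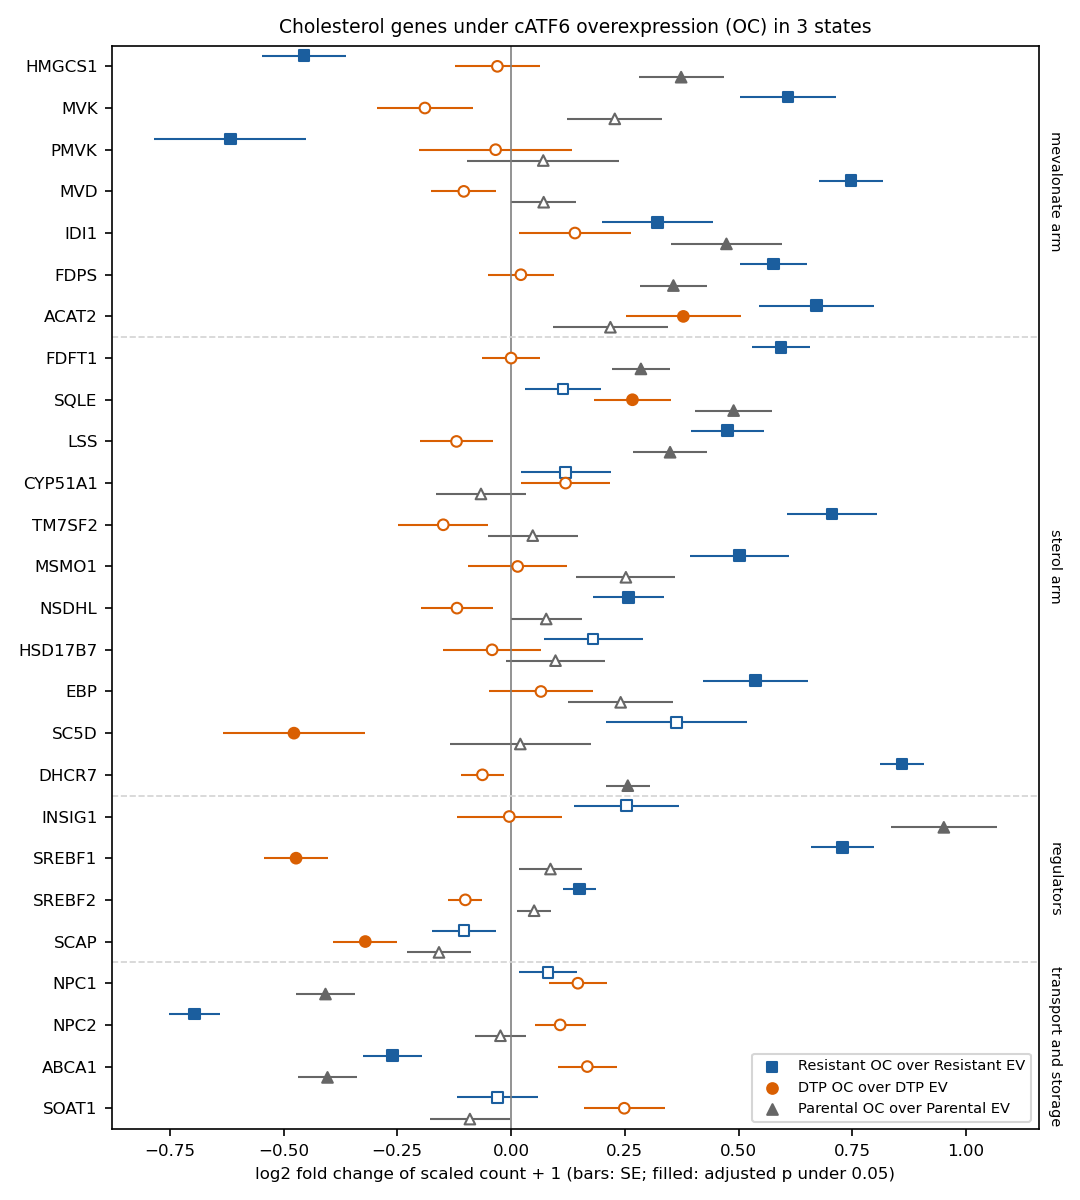
Log2 fold changes of 26 cholesterol genes in OC cells over EV cells of the same state, in Resistant (squares), DTP (circles) and Parental cells (triangles), with the standard error of limma as bars and filled symbols for adjusted p under 0.05. Filled symbols lie right of 0 mostly in Resistant and Parental cells, INSIG1 stands out in Parental cells at 0.95, and SREBF1 lies at -0.47 in DTP cells and at 0.73 in Resistant cells.

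The effect of cATF6 was set against that in parental cells by an interaction. Mean ATF6 scaled counts in OC against EV cells were 32301 against 2106 in Resistant cells and 20975 against 3298 in DTP cells. They were 18175 against 2949.6 in Parental cells, so state and the size of the ATF6 rise cannot be told apart in these differences. For DTP cells 2 of the 28 genes had a higher and 4 a lower OC effect than Parental cells, against 5.45% higher and 4.45% lower of all genes tested (9.9% called), and for Resistant cells 6 had a higher and 5 a lower one, against 14.2% higher and 16.1% lower (30.2% called). INSIG1 responded less in both states than in Parental cells, with differences in log2 fold change of -0.70 in Resistant cells (SE 0.16, limma adjusted p 0.00395) and -0.96 in DTP cells (SE 0.16, limma adjusted p 0.00172). SREBF1 differed in opposite directions, by 0.64 in Resistant cells (SE 0.10, limma adjusted p 0.000138) and by -0.56 in DTP cells (SE 0.10, limma adjusted p 0.00213). DHCR7 did so too, with 0.60 in Resistant cells (limma adjusted p 6.43e-06) and -0.32 in DTP cells (limma adjusted p 0.0074). NPC1, which fell in Parental OC cells, had differences of 0.49 in Resistant cells (limma adjusted p 0.000679) and 0.55 in DTP cells (limma adjusted p 0.00132). Both interactions subtract the same Parental effect, so the Resistant and DTP differences of a gene are not independent. For OC over EV, neither NPC1 nor INSIG1 was called within Resistant cells or within DTP cells. Leaving out DTP EV replicate 3 raised the number of genes with a different effect in DTP cells to 10 in place of 6.

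Between states within OC cells, 12 of the 28 genes were called higher and 4 lower in DTP OC than in Parental OC cells, against 28% higher and 25.2% lower of all genes tested (53.2% called). Without ABCG1 and STARD4 the counts were 11 higher and 3 lower. ABCG1, which passed the filter through the Resistant libraries alone, had 7, 5 and 8 reads in DTP OC libraries. In Parental OC libraries it had 0, 0 and 4 reads. The higher ABCG1 was not called without DTP OC replicate 1 or 3 or Parental OC replicate 1 or 2 (adjusted p 0.0671 to 0.105). It was also not called under quantile normalization (adjusted p 0.108). The lower STARD4 (limma adjusted p 0.0385) was not called without DTP OC replicate 1 or 2 or any Parental OC or Parental EV replicate (adjusted p 0.0528 to 0.136). The mevalonate arm had 1 gene called, IDI1, in place of the 5 called among EV cells, and no gene of that arm had an interaction called for DTP cells. The IDI1 call (log2 0.32, limma adjusted p 0.0344) was lost without DTP OC replicate 2 (adjusted p 0.123), DTP OC replicate 3 (adjusted p 0.140) or any Parental OC replicate (adjusted p 0.0575 to 0.0885). In the sterol arm 7 genes rose and FDFT1 fell 1.27-fold (limma adjusted p 0.00024), with SQLE 1.86-fold and SC5D 1.56-fold higher. The small rise of DHCR7 (log2 0.13, limma adjusted p 0.0262) was lost without DTP OC replicate 2 (adjusted p 0.0878), DTP OC replicate 3 (adjusted p 0.173), Parental OC replicate 1 (adjusted p 0.112) or Parental OC replicate 3 (adjusted p 0.0559). ABCA1 fell 3.37-fold (limma adjusted p 2.17e-12) and SREBF1 fell 2.74-fold (limma adjusted p 5.48e-11).

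In Resistant OC cells 21 of the 28 genes were called higher and 6 lower than in Parental OC cells, against 38.4% higher and 43.5% lower of all genes tested (81.9% called), and 20 were called higher and 5 lower than in DTP OC cells, against 37.3% higher and 44.3% lower (81.6% called). Without STARD4 and ABCG1 these counts were 20 higher and 5 lower against Parental OC cells, and 19 higher and 4 lower against DTP OC cells. The median log2 change of all genes in the second of these comparisons was -0.13, and -0.01 under quantile normalization. All 7 genes of the mevalonate arm were called against Parental OC cells, 6 of them higher, with IDI1 6.37-fold higher and PMVK 4.21-fold lower. In the sterol arm 9 of 11 rose, with SC5D 5.995-fold, MSMO1 4.19-fold and TM7SF2 3.84-fold higher. EBP was called lower (log2 -0.28, limma adjusted p 0.0335), a call lost without Parental OC replicate 1 (log2 -0.28, adjusted p 0.0612), Parental OC replicate 3 (log2 -0.26, adjusted p 0.0843), Resistant OC replicate 1 (log2 -0.29, adjusted p 0.056) or Resistant OC replicate 2 (log2 -0.26, adjusted p 0.0783). LSS was called higher (log2 0.23, limma adjusted p 0.0143), a call lost without Resistant OC replicate 3 (log2 0.19, adjusted p 0.0663). The higher FDPS (log2 0.35) and SOAT1 (log2 0.37) were not called under quantile normalization (log2 0.09, adjusted p 0.306, and log2 0.12, adjusted p 0.246). SREBF1 was 1.35-fold higher in Resistant OC than in Parental OC cells (limma adjusted p 2.3e-05), a call lost under quantile normalization (log2 0.12, adjusted p 0.116), and 3.70-fold higher than in DTP OC cells (limma adjusted p 1.4e-13). ABCA1 was lower in Resistant OC than in Parental OC cells (log2 -0.16, limma adjusted p 0.0311), a call lost without Resistant OC replicate 2 (log2 -0.12, adjusted p 0.138), Parental OC replicate 2 (log2 -0.15, adjusted p 0.0853) or Parental OC replicate 3 (log2 -0.13, adjusted p 0.112). The number of reads of ABCG1 was 840 in Resistant OC cells against 4 in Parental OC cells, a ratio of 235 per scaled depth. Its exact 95% interval of 91.4 to 864 covers counting error only, and ABCG1 passed the filter through the Resistant libraries alone.

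Resistant EV and DTP EV cells were also compared directly. Resistant EV cells had 4.49-fold more IDI1, 3.59-fold more INSIG1, 2.58-fold more HMGCS1, 2.24-fold more MSMO1 and 5.65-fold more NPC2 than DTP EV cells, each with a limma adjusted p of 3.4e-08 or less. They had 3.62-fold less PMVK, 1.82-fold less LSS and 2.37-fold less NPC1 (limma adjusted p 2.01e-08, 3.28e-08 and 1.21e-11). DHCR7 was 1.18-fold higher in Resistant EV cells (log2 0.24, limma adjusted p 0.000248), but its log2 value was -0.03 under quantile normalization (adjusted p 0.615). The lower FDPS (log2 -0.18, limma adjusted p 0.0349) was not called without DTP EV replicate 1 (adjusted p 0.120), DTP EV replicate 2 (adjusted p 0.106) or Resistant EV replicate 3 (adjusted p 0.0997), and the lower NSDHL (log2 -0.21, limma adjusted p 0.0237) not without DTP EV replicate 1 (adjusted p 0.106) or Resistant EV replicate 1 (adjusted p 0.0861).

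Of 41 further genes of sterol sensing, isoprenoid synthesis, uptake and storage, 35 were tested. In Resistant EV cells 18 were called higher and 11 lower than in Parental EV cells, where 82.2% of all genes were called. In DTP EV cells 13 were called higher and 12 lower, where 56.9% of all genes were called. The median log2 fold change of the 35 genes was 0.29 in Resistant EV and -0.03 in DTP EV cells. LIPA, the lysosomal acid lipase that frees cholesterol from its esters, rose 20.6-fold in Resistant EV cells and 1.54-fold in DTP EV cells (limma adjusted p 1.04e-19 and 1.8e-08). GGPS1, which makes geranylgeranyl diphosphate, rose 3.51-fold in Resistant EV cells, and ACLY, which supplies cytosolic acetyl-CoA, fell 2.78-fold. VLDLR, a lipoprotein receptor, fell 6.33-fold in Resistant EV cells (limma adjusted p 6.16e-14). NR1H2, which encodes LXR-beta, averaged 3944 scaled counts in Resistant EV, 1972 in DTP EV and 1505 in Parental EV cells, a 2.62-fold rise in Resistant EV cells over Parental EV cells (limma adjusted p 8.32e-13). NR1H3, which encodes LXR-alpha, fell 2.24-fold in DTP EV cells (limma adjusted p 3.47e-06), and MYLIP, an LXR target that marks lipoprotein receptors for breakdown, fell 1.91-fold in DTP EV cells and rose 3.32-fold in Resistant EV cells. With cATF6, 9 of the 35 were called higher and 7 lower in Resistant OC than in Resistant EV cells, 2 higher and 5 lower in DTP OC than in DTP EV cells, and 5 higher and 1 lower in Parental OC than in Parental EV cells. Of all genes, 36.7% were called in Resistant cells, 18.2% in DTP cells and 14% in Parental cells. The median log2 fold change of the 35 genes was 0.0053 in Resistant cells, 0.02 in DTP cells and -0.03 in Parental cells. NR1H3 rose 2.06-fold and ACLY 1.37-fold in Resistant OC relative to Resistant EV cells (limma adjusted p 3.64e-05 and 2.26e-06).

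Circular RNAs whose host is 1 of the 28 genes gave a readout in osimertinib. The table held 7 of them, from SCAP, SOAT1, CYP51A1, HMGCS1 and FDFT1, and 2 had high enough back-splice values to be tested. circSCAP_025 had back-splice values, on a linear scale, of 9, 4 and 16 in Osi libraries against 0, 0 and 10 in DMSO libraries, groups that overlap (log2 1.98, SE 1.03, limma adjusted p 0.444). circHMGCS1_003 had back-splice values of 2, 2.5 and 1.5 in Osi libraries against 0, 0 and 2.5 in DMSO libraries (log2 0.89, SE 0.67, limma adjusted p 0.622). limma called 0 of 871 circular RNAs (0%), with 120 at an unadjusted p under 0.05, and other settings called up to 52, none of them from these genes.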

How the data were processed

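Whole-transcriptome libraries of HCC827 cells were made from ribosome-depleted RNA with a directional kit, per the labels' protocols. The submitters' processing notes name FastQC, MultiQC, STAR and featureCounts with build hg19 and no versions, and the strand setting is not given in the sources used here. The authors deposited genes as log10 of count + 1, not scaled for depth: undoing the log10 gave whole numbers in 100% of cells (tolerance 1e-06). They deposited circular RNAs on a log10 scale: undoing log10(value + 1) gave whole numbers in 64.77% of cells above 0, so these back-splice values are not plain read counts. The authors deposited their own p-value columns beside them, which were not used. The names of 6 other gene columns match no 1 sample, and these columns were left out. Of 22549 lines, 2557 named NewGene and 60 lines of 15 repeated symbols were left out.

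Library scaling used TMM factors (trimmed mean of M-values) computed by own code, trimming 0.3 of M and 0.05 of A. The test was limma 3.58.1 (R 4.3.3; eBayes with a trend) on the log2 of scaled count + 1, fitted once to 18 libraries with 12 residual degrees of freedom. Genes needed at least 10 counts in at least 3 libraries. circRNAs needed a value of at least 2 in at least 3 of 6 libraries. Chi-square per degree of freedom between replicates reached 54.3 (DTP EV replicates 1 and 2), so library spread and not depth sets the precision of abundant genes. The list of members, the other lists and the tests were drawn up with earlier results of these data known, although the rule itself applies no measured value. Members were named in every library where they had the 6 largest called changes between states or the 4 largest with OC, at a mean of at least 100 in the higher group, along with 12 members that the rule lists by name. Alternatives were RLE size factors, quantile normalization, no filter, no trend, voom, a pseudocount of 0.1, a replicate block, fits of the compared groups alone, and leaving out each library or the 6 Resistant libraries. Leaving out genes at 0 in a whole series was added after seeing the data. The steps were tested on simulated data in which all groups had the same spread for a gene and few genes changed. That simulation does not test unequal spread between groups or change in most genes. Promoters came from RefSeq, build GRCh38.p14, a build other than that of the counts.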

Additional observations from a re-analysis of the deposited data

Results flagged for a closer look

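The results in this section are genes whose response to cATF6 differed from that in Parental cells by the interaction of the limma fit. Each is given as the difference in log2 fold change (OC over EV), with the adjusted p over all genes tested. State and the size of the ATF6 rise cannot be told apart here, and the Resistant and DTP results share the Parental libraries.

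In Resistant cells the response was higher than in Parental cells for MVD, by 0.68 (adjusted p 0.000102), for TM7SF2, by 0.66 (adjusted p 0.00197), for SREBF1, by 0.64 (adjusted p 0.000138), for DHCR7, by 0.60 (adjusted p 6.43e-06), for NPC1, by 0.49 (adjusted p 0.000679), and for FDFT1, by 0.31 (adjusted p 0.0153). The call of FDFT1 was lost under quantile normalization (0.23, adjusted p 0.0709). The response was lower in Resistant cells for HMGCS1, at -0.83 (adjusted p 0.000184), for INSIG1, at -0.70 (adjusted p 0.00395), for PMVK, at -0.69 (adjusted p 0.0372), for NPC2, at -0.67 (adjusted p 1.09e-05), and for SQLE, at -0.37 (adjusted p 0.0246). The PMVK call was lost without Resistant OC replicate 1, Resistant EV replicate 1 or 3, Parental OC replicate 1 or 3, or Parental EV replicate 1 or 2 (adjusted p 0.0501 to 0.0944). The SQLE call was lost without Resistant OC replicate 2 or 3, Resistant EV replicate 3, Parental OC replicate 2 or 3, or Parental EV replicate 2 or 3 (adjusted p 0.05004 to 0.0627). Within Resistant cells, OC over EV was not called for NPC1, INSIG1 or SQLE. In Parental cells, NPC1 was called lower with OC, and INSIG1 and SQLE higher.

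In DTP cells the response was higher than in Parental cells for ABCA1, by 0.57 (adjusted p 0.00121), and for NPC1, by 0.55 (adjusted p 0.00132). It was lower in DTP cells for INSIG1, at -0.96 (adjusted p 0.00172), for SREBF1, at -0.56 (adjusted p 0.00213), for LSS, at -0.47 (adjusted p 0.0158), and for DHCR7, at -0.32 (adjusted p 0.0074). Within DTP cells, OC over EV was called for SREBF1 and not for ABCA1, NPC1, INSIG1, LSS or DHCR7. In Parental cells, ABCA1 and NPC1 were called lower with OC, and INSIG1, LSS and DHCR7 higher. All 6 interaction calls in DTP cells held under every alternative that was run. Each of those fits also held Parental libraries, and the median coefficient of variation was 3.01% in Parental EV against 11.2% in DTP EV cells. The calls were therefore not tested against the spread of DTP libraries alone. A fit of the DTP groups alone called none of the 28 genes in DTP OC against DTP EV cells.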

How the results depend on the processing

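Over the 11 comparisons the 28 genes gave 188 calls, of which 158 held under every alternative in which the gene was tested (STARD4 was not tested when genes at 0 in a whole series were left out), 29 were lost under at least 1 and 1 reversed. The reversal was DHCR7 in Resistant EV against DTP EV cells under quantile normalization (log2 -0.0279, adjusted p 0.615). The number called in Parental OC against Parental EV cells was 10, and 18 in a fit of these groups alone, which called 5698 of 13984 genes in all against 2128 of 15211 in the fit of 18 libraries. In DTP OC against DTP EV cells it was 5, against 3 without the trend, 2 with the replicate block and 0 in a fit of the DTP groups alone, which called 65 of 14141 genes in all. On leaving out 1 library at a time the number called ran from 19 to 22 (DTP EV against Parental EV), 23 to 24 (Resistant EV against Parental EV), 24 to 27 (Resistant EV against DTP EV), 12 to 17 (DTP OC against Parental OC), 25 to 27 (Resistant OC against Parental OC and against DTP OC), 9 to 10 (OC against EV in Parental cells), 2 to 8 (in DTP cells), 16 to 19 (in Resistant cells), 6 to 10 (interaction in DTP cells) and 9 to 13 (interaction in Resistant cells). The cause of these shifts was not tested. Deviations of same-numbered libraries correlated between -0.0615 and 0.083, so the numbers were not taken to pair samples, and the replicate block moved the number called by more than 1.5 times in DTP OC against DTP EV cells alone. No circRNA of the 28 genes was called under any alternative. Depth limits the results for ABCG1 in Parental and DTP cells and for the circRNAs.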
